A study of Saccharomyces cerevisiae with 5 samples.

Results

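The 9 genes described here encode the enzymes of lower glycolysis in the budding yeast Saccharomyces cerevisiae, from the oxidation of triose phosphate to the making of pyruvate. They are the glyceraldehyde-3-phosphate dehydrogenase genes TDH1, TDH2 and TDH3, the phosphoglycerate kinase gene PGK1, the phosphoglycerate mutase gene GPM1, the enolase genes ENO1 and ENO2, and the pyruvate kinase genes CDC19 and PYK2. They were chosen by name, and all 9 were found among the 5539 named genes of one array platform, on 18 of 12800 spots, and among the 5583 named genes of another, on 10 of 7680 spots. Each of the 5 arrays compared, in 2 channels, RNA co-precipitated with zz-tagged Yra1 and RNA co-precipitated with zz-tagged Mex67. The zz tag is built from IgG-binding domains of protein A, Mex67 carries mRNA through the nuclear pore, and Yra1 is the adaptor that binds RNA and hands it to Mex67. Strain, growth condition and any untagged control are not given in the labels used here; on every array they name the Yra1 precipitate for channel 1 and the Mex67 precipitate for channel 2.

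Lower glycolysis is the part of the pathway that pays back ATP. The dehydrogenase step stores the energy of an oxidation as an acyl phosphate, the kinase steps of Pgk1 and of pyruvate kinase pass phosphate to ADP, and the mutase and enolase steps between them raise the transfer potential of the remaining phosphate. Yeast growing on glucose relies on these enzymes for most of its ATP, and their transcripts are among the most abundant mRNAs of the cell. TDH3 encodes the main dehydrogenase, CDC19 the main pyruvate kinase, and ENO2 the enolase that glucose induces.

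Values are log2 ratios relative to the median of each array, averaged over the spots of a gene. It is not known which channel was divided by which, so "lower" and "higher" say where the deposited ratio lay, not whether the Yra1 or the Mex67 precipitate was richer in a transcript. The arrays are called replicates 1 to 5. Replicates 2 to 5 were made on the same platform and enter the test, while replicate 1 came on the other and is described alongside. Replicates 3 and 5 have one code in common in their titles, whose meaning is not stated. The deposited array medians ran from -2.81 to 1.96 on the log2 scale, and the highest, that of replicate 2, was of opposite sign to those of replicates 3 to 5. Across genes the arrays hardly resembled each other, with Pearson r from -0.06 to 0.13 over the 10 pairs of arrays, so the genes give no sign of whether replicate 2 runs the same way as the others. Whether separate cultures were used is not stated in the labels, and p-values therefore measure only the spread between arrays, which may be technical. On the platform of 4 arrays many spots near the edge of a printed block hold exactly the value of a neighbouring spot, on 8.03 to 37.3% of all spots of an array. Such a value was read as one of the area and not of the gene. It was still kept in the values and shares of genes given here, unless leaving it out is stated.

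Most of the lower glycolysis genes had ratios below the array median on replicates 2 to 5. Of the 36 values (9 genes on 4 arrays), 29 were below 0 and 18 lay in the lowest 10% of genes of their array, a class that holds 10% of all genes by construction. Shared spot values enter these counts for CDC19 on replicate 2 and for PYK2 on replicates 2, 3 and 5. The mean over the 4 arrays was below 0 for 8 of the 9 genes, against 51.3% of all genes, and the median of these means was -1.36, against -0.02 for all 5539 genes. GPM1, ENO1 and ENO2 were below 0 on all 4 arrays, as were 7.13% of all genes, and 0 members were above 0 on all 4, as were 7.11% of all genes. At an unadjusted p under 0.05 in limma, TDH2, TDH3, GPM1, ENO1 and ENO2 were lower and 0 members were higher. Among all genes 3.99% were lower and 1.43% higher at that limit. The count of 5 depends on replicate 2: with its sign turned, CDC19 was the only member lower, beside 2.29% of all genes. TDH2 and TDH3, like ENO1 and ENO2, may cross-hybridise, so the 5 genes cannot be read as separate measurements. No gene passed limma with Benjamini-Hochberg adjustment over all genes: 0 of the 9 and 0% of the 5539 tested, with the smallest adjusted p at 0.834.

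**Figure D1:**
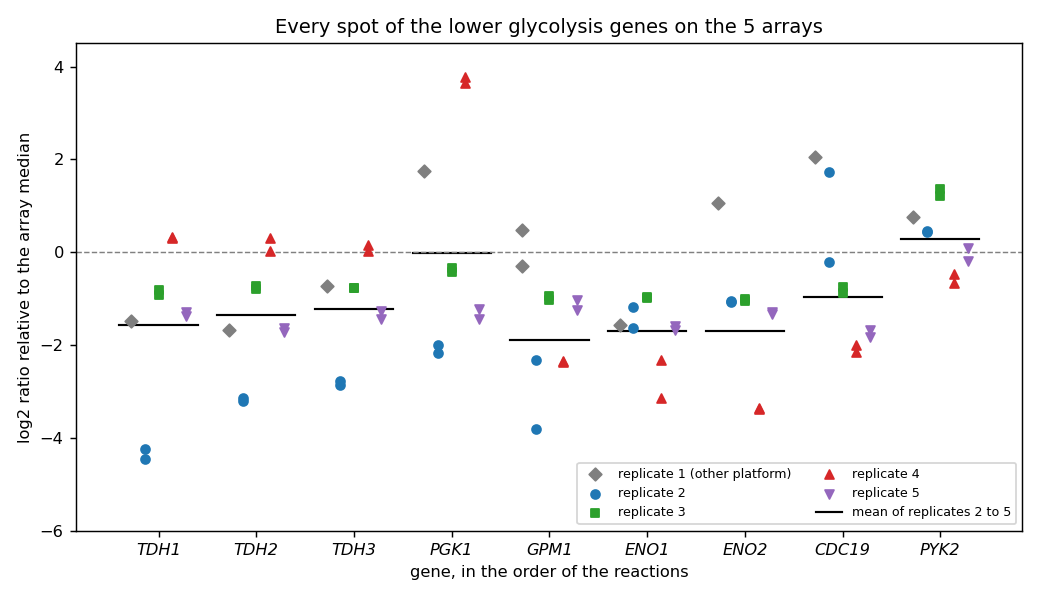
Log2 ratio relative to the array median (vertical axis) of every spot of the 9 genes, in the order of the reactions (horizontal axis), with 1 symbol and colour per array and a black line at the mean of replicates 2 to 5. The green and purple symbols of replicates 3 and 5 lie in a narrow band below 0 for all genes except PYK2, while the red symbols of replicate 4 run from 3.71 for PGK1 to -3.37 for ENO2 (gene means).

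The 3 dehydrogenase genes, whose products carry out the same oxidation, lay within 0.34 log2 units of one another on replicates 3, 4 and 5, while on replicate 2 TDH1 was 1.19 below TDH2 and 1.54 below TDH3. TDH1 had log2 ratios of -4.36, -0.87, 0.32 and -1.34 on replicates 2 to 5. TDH2 was at -3.17, -0.77, 0.17 and -1.68 on those arrays, and TDH3 was at -2.82, -0.78, 0.08 and -1.36. All 3 were thus lowest on replicate 2, just above 0 on replicate 4 and between these on replicates 3 and 5. On replicate 2 only 0.469% of genes were lower than TDH1, 2.09% were lower than TDH2 and 3.76% were lower than TDH3, and on replicate 4 the shares were 65.6, 58.1 and 53.1%. The means over the 4 arrays were -1.56 ± 1.99 for TDH1, -1.36 ± 1.42 for TDH2 and -1.22 ± 1.22 for TDH3 (SD, n = 4). By limma these differed from 0 with unadjusted p = 0.0620 for TDH1, 0.0410 for TDH2 and 0.0426 for TDH3, and with adjusted p = 0.834 for each. On replicate 1 all 3 were also below 0, at -1.49, -1.68 and -0.72. Their means rest on replicate 2: without it TDH1 was at -0.63, TDH2 at -0.76 and TDH3 at -0.69, and with its sign turned they were at 0.62, 0.22 and 0.19.

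PGK1, whose product makes the first ATP of the pathway, did not keep 1 direction. Its log2 ratios were -2.09, -0.39, 3.71 and -1.32 on replicates 2 to 5, and 1.74 on replicate 1. On replicate 4 its 2 spots read 3.64 and 3.78, and 99.96% of genes were lower. The surroundings of these spots, taken as the median of the spots of other genes within 2 rows and 2 columns of the block, were at 0.71 and 0.59. On replicate 2 the same spots were at -2.18 and -2.01, where 9.91% of genes were lower. The mean was -0.03 ± 2.58 (SD, n = 4; limma unadjusted p = 0.978, adjusted p = 0.997), and 98.5% of genes had a smaller SD over the 4 arrays. Without replicate 4 the mean was -1.27, and under 9 of 14 alternative settings it was above 0.

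GPM1, whose product shifts the phosphate of phosphoglycerate, had the lowest mean of the 9 genes. Its log2 ratios were -3.07, -0.99, -2.35 and -1.13 on replicates 2 to 5, all below 0, and 0.09 on replicate 1, where its 2 spots read 0.48 and -0.30. On replicate 2 the duplicate spots disagreed, at -2.32 and -3.81, and on replicate 4 they read -2.35 and -2.36. The mean over the 4 arrays was -1.89 ± 1.00 (SD, n = 4), a 3.70-fold lower ratio, with unadjusted p = 0.00342 and adjusted p = 0.834 by limma. With each of the 4 arrays left out in turn it ran from -2.18 to -1.49. With the sign of replicate 2 turned it was at -0.35.

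The enolase genes ENO1 and ENO2, whose products remove water to give phosphoenolpyruvate, were close on the 4 arrays and far apart on replicate 1. ENO1 had log2 ratios of -1.41, -0.98, -2.72 and -1.64 on replicates 2 to 5, and ENO2 was at -1.06, -1.03, -3.37 and -1.31. Both were below 0 on every one of these arrays and lowest on replicate 4, where 1.17% of genes were lower than ENO1 and 0.307% lower than ENO2. The means were -1.69 ± 0.74 for ENO1 and -1.69 ± 1.13 for ENO2 (SD, n = 4), with limma unadjusted p = 0.00303 and 0.00842 and adjusted p = 0.834 for both. With the sign of replicate 2 turned they were at -0.98 and -1.16. On replicate 1 ENO1 was at -1.57 and ENO2 at 1.06, so that ENO1 was the one member below 0 on all 5 arrays, a pattern found in 3.32% of all genes.

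The pyruvate kinase genes differed in how far their spots could be read. CDC19 had log2 ratios of 0.75, -0.81, -2.08 and -1.76 on replicates 2 to 5 and 2.05 on replicate 1, where 99.9% of genes were lower. Its 0.75 on replicate 2 is the mean of a spot at 1.72, which holds the value of its neighbour, and one at -0.21. Without the shared value, CDC19 was below 0 on all 4 arrays, and its mean was -1.22 in place of -0.97 ± 1.27 (SD, n = 4). By limma the unadjusted p was 0.0224 without the shared value (adjusted p = 0.801) and 0.0958 with it (adjusted p = 0.834). With each of the 4 arrays left out in turn, CDC19 ran from -1.55 without replicate 2 to -0.61 without replicate 4, and over all 5 arrays its mean was -0.37. PYK2, the lesser isozyme, was at 0.45, 1.28, -0.57 and -0.05 on replicates 2 to 5 and at 0.75 on replicate 1. On replicates 2, 3 and 5 both of its spots held a value shared with a neighbour, which left replicate 4 as the one array of this platform with values of its own. Its mean of 0.28 ± 0.79 (SD, n = 4, limma unadjusted p = 0.506, adjusted p = 0.929) therefore rests mostly on shared values.

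The values of the members were set against the spots around them, because ratios on these arrays vary over the area of a block. Of the 65 spot values of the 9 genes that were not shared with a neighbour, 60 were below the median of their surroundings and 5 above it, against 50.2% below among the 35071 such values of all named spots. The duplicate spots of a gene are neighbours, and averaged per gene and array 31 of 33 values were below. The 7 values left out were 6 of PYK2 and the high spot of CDC19, and with them 63 of 72 spot values were below. On replicates 2 and 5 all of them were below, 15 of 15 and 16 of 16. On replicate 3 this held for 15 of 16, and on replicate 4 for 14 of 18. TDH2 on replicate 2 lay in an area of high ratios, so that removing the local median moved it to -5.38, against -3.17 before. On replicate 5 TDH2 lay in an area of low ratios and came to -0.43, against -1.68. With the local median removed from every spot, GPM1 had a mean of -2.46 ± 1.04, ENO1 of -2.07 ± 0.92, TDH2 of -1.80 ± 2.39, CDC19 of -1.76 ± 1.13, ENO2 of -1.65 ± 1.07, TDH1 of -1.59 ± 1.89 and TDH3 of -1.06 ± 0.60 (SD, n = 4). PGK1 was then at -0.09 ± 2.27 and PYK2 at 0.02 ± 0.35.

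**Figure D2:**
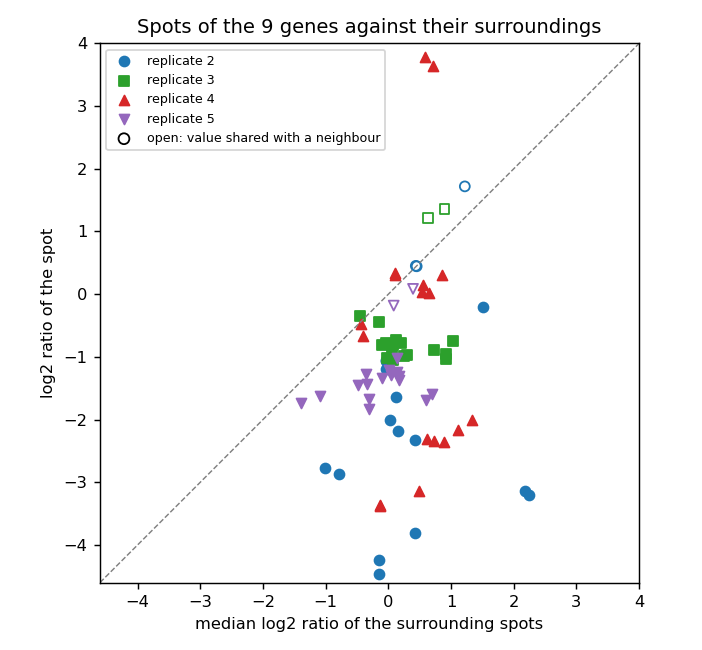
Log2 ratio of each spot of the 9 genes on replicates 2 to 5 (vertical axis) against the median log2 ratio of the surrounding spots of other genes (horizontal axis), both relative to the array median, with 1 symbol and colour per array and open symbols for values shared with a neighbour. Of the 65 filled symbols 60 lie below the dashed line of equal values, and the red pair near the top is PGK1 on replicate 4.

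TDH1 and ENO2 show how far neighbouring spots could part. On the platform of 4 arrays their duplicate spots lie in columns 9 and 10 of block 9, ENO2 in row 9 and TDH1 in row 10. On replicate 2 the TDH1 spots read -4.47 and -4.25, while the ENO2 spots above them read -1.07 and -1.04. On replicate 4 the order was the reverse, with TDH1 at 0.34 and 0.31 and ENO2 at -3.37 at both spots. The 2 genes thus differed by over 3 log2 units in opposite directions on these arrays, at the same place of the slide.

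Duplicate spots of most members agreed well. The root mean square difference between the 2 spots over the 4 arrays was 0.03 log2 units for ENO2, 0.12 for TDH3, 0.13 for TDH1, and 0.16 for TDH2 and for PGK1, below the median of 0.41 over the 5510 genes with 2 spots. That of PYK2 was 0.18, but both of its spots hold shared values on replicates 2, 3 and 5, so this is no agreement of measurements of the gene. The difference between spots was 0.47 for ENO1, 0.75 for GPM1 and 0.97 for CDC19, where the shared value on replicate 2 enters. The range of a gene over the 4 arrays was far larger, from 1.75 log2 units for ENO1 to 5.80 for PGK1. Duplicate spots lie side by side and share their surroundings, so their agreement does not show how far position enters a value. With the local median removed, the SD over the 4 arrays was 0.60 for TDH3, against 1.22 before, while that of TDH2 was 2.39, against 1.42 before. For PYK2 it was 0.35, against 0.79 before. Most PYK2 values were shared with neighbours, and removing the local median shrinks such values by construction, so this drop says nothing about the gene.

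The likeness of the members over the 4 arrays was measured pair by pair. TDH2 and TDH3 were the closest pair, with a root mean square difference of 0.24 log2 units, and 0.391% of all pairs of genes on the platform were closer. ENO1 and ENO2 followed with 0.40, closer than all but 2.61% of gene pairs, and TDH1 lay 0.63 from TDH2 and 0.78 from TDH3, where 10.6 and 19.4% of gene pairs were closer. GPM1 lay 0.89 from ENO1 and 1.13 from ENO2, and CDC19 lay 1.13 from ENO1 and 1.14 from ENO2, distances that 26.3 to 43.6% of gene pairs undercut. These distances depended on the position of the spots: with the local median removed, TDH2 and TDH3 were 1.75 apart, with 91.3% of gene pairs closer, and ENO1 and ENO2 were 0.56 apart, with 34.2% closer. The closest pair of members was then ENO2 and CDC19, genes of different reactions, at 0.39, with 15.8% of gene pairs closer. ENO1 and CDC19 were 0.63 apart, with 42.6% closer. PGK1 was the farthest member, at 1.86 or more from each of the others and at 3.59 from ENO2. The median over the 36 pairs of members was 1.96, against 1.24 over all pairs of genes. The TDH copies and the enolase copies are known to be similar in sequence and may cross-hybridise, which was not tested, so values within the dehydrogenase and enolase genes cannot be read as separate measurements of their transcripts.

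**Figure D3:**
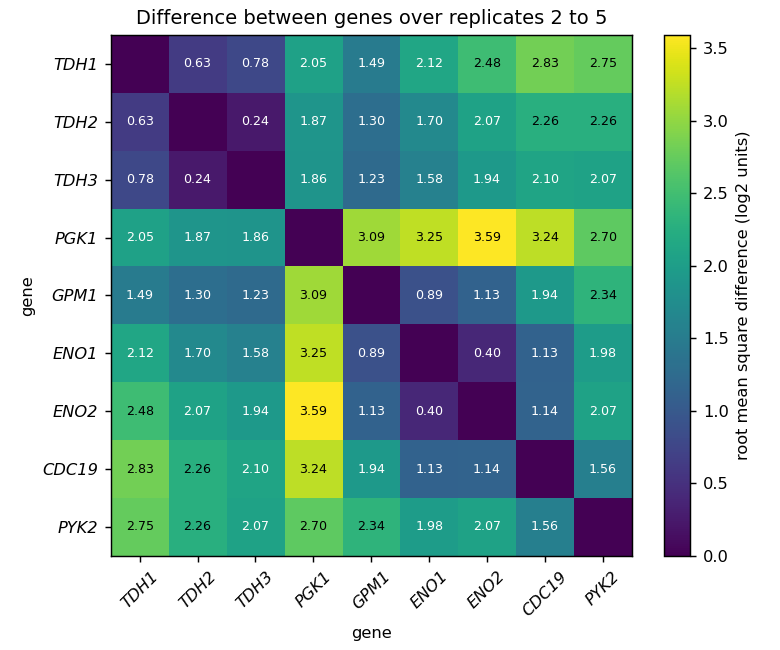
Root mean square difference of log2 ratios over replicates 2 to 5 between each pair of the 9 genes (both axes, in the order of the reactions), with dark cells for pairs that differ little. Local medians are not removed; the dark cells off the diagonal join the TDH genes, from 0.24 to 0.78, and ENO1 with ENO2, at 0.40, and the brightest row and column belong to PGK1.

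Replicates 2 and 4, with the widest spread of values, ordered the genes in different ways along the pathway, a pattern described after the values were seen. On replicate 2 the dehydrogenase genes, PGK1 and GPM1 lay between -4.36 and -2.09, the enolase genes at -1.41 and -1.06, and the pyruvate kinase genes above 0, though with values shared with neighbouring spots. On replicate 4 the dehydrogenase genes lay between 0.08 and 0.32 and PGK1 at 3.71, while GPM1, both enolase genes and CDC19 lay between -3.37 and -2.08. The other arrays of the platform showed little of either order: without PYK2, the members ran from -1.03 to -0.39 on replicate 3 and from -1.76 to -1.13 on replicate 5. On replicate 1 CDC19, PGK1 and ENO2 were high, at 2.05, 1.74 and 1.06, and TDH2, ENO1 and TDH1 were low, at -1.68, -1.57 and -1.49. When the members were ordered by their mean over the 4 arrays, from GPM1 through ENO2, ENO1, TDH1, TDH2, TDH3, CDC19 and PGK1 to PYK2, no neighbours in the order differed by more than the SD of their difference.

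Genes of the same reaction were compared within each array, over 5 pairs and all 5 arrays. The exact sign-flip permutation test of 5 differences is two-sided here and cannot give a p below 0.0625, so no pair could pass 0.05. ENO1 minus ENO2 was -2.63, -0.36, 0.05, 0.65 and -0.33 on replicates 1 to 5, with a mean of -0.52 ± 1.25 (SD, n = 5; exact p = 0.562, adjusted over the 5 pairs 0.703). Without local correction the difference lay on replicate 1: over the other 4 arrays its mean was 0.0041. With the local median removed, ENO1 was below ENO2 on each of replicates 2 to 5, with means of -2.07 and -1.65. TDH1 minus TDH2 averaged -0.12 ± 0.62 (exact p = 0.938, adjusted 0.938, n = 5). TDH1 minus TDH3 averaged -0.43 ± 0.73 (exact p = 0.375, adjusted 0.625, n = 5), with -1.54 on replicate 2. TDH2 minus TDH3 averaged -0.31 ± 0.41 (exact p = 0.25, adjusted 0.625, n = 5), with -0.96 on replicate 1 and values from -0.35 to 0.09 on the others. CDC19 minus PYK2 was 1.30, 0.31, -2.10, -1.51 and -1.71 on replicates 1 to 5, with a mean of -0.74 ± 1.47 (exact p = 0.312, adjusted 0.625, n = 5). On replicates 2, 3 and 5 this last difference uses PYK2 values shared with neighbouring spots, and with shared values left out only replicates 1 and 4 remained, with a mean of -0.11 ± 1.99 (SD, n = 2).

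**Figure D4:**
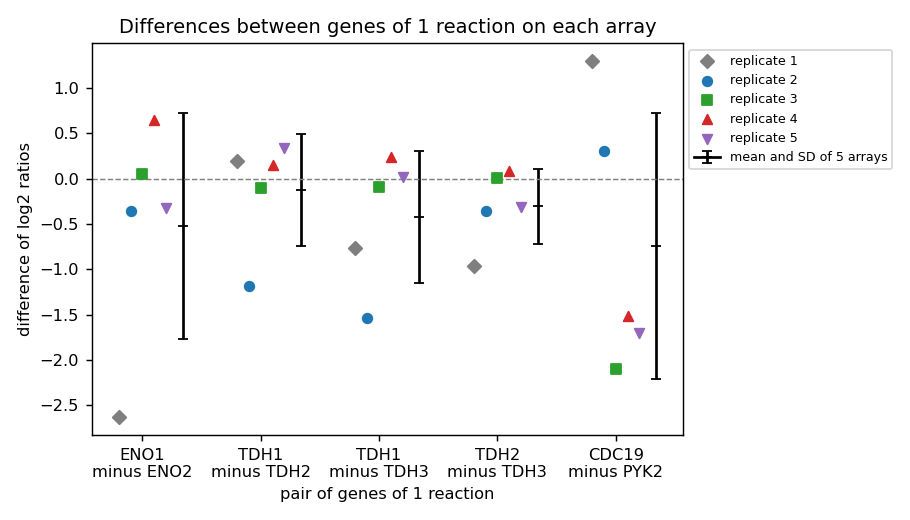
Difference of log2 ratios between genes of 1 reaction (vertical axis) for the 5 pairs (horizontal axis), with 1 symbol and colour per array and, in black, the mean and SD of the 5 arrays. Every pair has values on both sides of 0, and the lowest symbol is ENO1 minus ENO2 on replicate 1, at -2.63.

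The median of the 9 members minus that of all genes was -2.10, -0.82, -0.60 and -1.33 log2 units on replicates 2 to 5 (-1.21 ± 0.66, SD, n = 4) and 0.15 on replicate 1. Without PYK2 it lay at -1.42 ± 0.72. Of the 9 members, 5, 3, 4 and 6 were in the lowest 10% of genes on replicates 2 to 5, and 3 were on replicate 1. The value depends on replicate 2, at -0.92 ± 0.38 without it and at -0.16 ± 1.54 with its sign turned.

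Other genes around the pathway were described in the same way, with no test of their difference from the 9 members. The 8 genes of upper glycolysis, which carry glucose to triose phosphate, lay at -0.45 ± 0.34 relative to all genes (SD, n = 4). Of their means 6 were below 0, against 51.3% of all genes. At an unadjusted p under 0.05 in limma 1 gene was lower, beside 3.99% of all genes, and 0 passed adjustment. That gene was FBA1, the aldolase gene, at -1.53 ± 1.54, with -3.82 on replicate 4 and 1.08 on replicate 1. PFK1, a phosphofructokinase subunit gene, was at -1.05 ± 1.27 and had, like the TDH genes, its lowest value on replicate 2 (-2.31) and a value above 0 on replicate 4 (0.46). The 8 pyruvate decarboxylase and alcohol dehydrogenase genes, which carry pyruvate on to ethanol, lay at -0.48 ± 0.90, with shifts of 0.57 on replicate 2 and -1.61 on replicate 4. Of these 0 had an unadjusted p under 0.05, beside 3.99% of all genes lower and 1.43% higher. Among them the decarboxylase gene PDC5 was at -1.04 ± 1.25 and ADH5 at -1.01 ± 1.50.

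The sequence relatives resemble members in sequence, while the gluconeogenesis list and the glycerol branch hold genes of neighbouring pathways. None of these lists carries the main glycolytic flux. Each of these lists had shifts on both sides of 0. The 5 sequence relatives, GPM2, GPM3 and the enolase-related genes ERR1, ERR2 and ERR3, lay at 0.02 ± 0.55 (SD, n = 4), from -0.39 on replicate 3 to 0.83 on replicate 5, and at 0.44 on replicate 1. Of these, GPM3 was at -0.54 ± 0.47 and GPM2 at 0.32 ± 0.63. The 5 gluconeogenesis and pyruvate carboxylase genes lay at 0.01 ± 0.49, from -0.58 on replicate 4 to 0.61 on replicate 5, and at 0.10 on replicate 1. In that list FBP1, the fructose bisphosphatase gene, was above 0 on all 4 arrays with a mean of 0.49 ± 0.40. The gene of phosphoenolpyruvate carboxykinase, PCK1, was at 0.41 ± 0.70. The 4 glycerol branch genes lay at 0.03 ± 0.40, and at -0.89 on replicate 1, where all 4 were below 0, as were 52.8% of all genes. The glycerol phosphatase gene GPP1 was at -0.48 ± 0.27 and the glycerol phosphate dehydrogenase gene GPD1 at 0.33 ± 0.66. The 4 genes of regulators of glycolytic transcription had shifts below 0 on every array, at -0.44 ± 0.18 (SD, n = 4) and at -0.91 on replicate 1. TYE7, a transcription factor gene of that list, was below 0 on all 5 arrays with a mean of -1.14 ± 0.72 (limma unadjusted p = 0.0197, adjusted p = 0.834, n = 4), and RAP1 was at -0.75 ± 1.05. Adjusted p was 0.834 or above for each of these named genes.

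**Figure D5:**
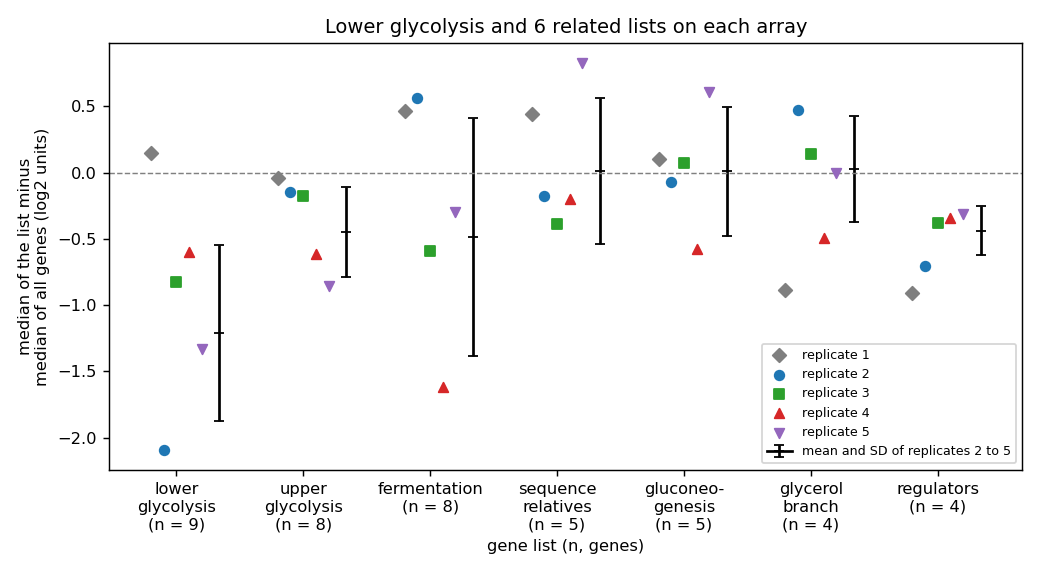
Median log2 ratio of each list minus the median of all genes (vertical axis) for the 9 lower glycolysis genes and 6 related lists (horizontal axis), with 1 symbol and colour per array and, in black, the mean and SD of replicates 2 to 5. The lower glycolysis genes lie at -1.21 on average, from -2.10 on replicate 2 to -0.60 on replicate 4, with replicate 1 at 0.15.

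The genes outside the 9 whose values on replicates 2 to 5 came nearest to the mean of the members were GRE2, AQY2, PRE10, CDA2 and RPL8A. The mean of the members was -1.86, -0.59, -0.76 and -1.29 on these arrays. GRE2 was at -1.69, -0.69, -0.89 and -1.36, a root mean square difference of 0.12 log2 units, and the other four were at 0.25 to 0.27. Over only 4 arrays many genes can come this near. On replicate 1, which did not enter the choice, the mean of the members was 0.03, and these 5 genes ran from -1.26 for RPL8A to 0.74 for GRE2.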

How the data were processed

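The authors deposited 1 ratio per spot, on a log10 scale that was worked out from the values, since no source used here gives the scanner, background correction, normalization or numerator. Here each log10 ratio was converted to log2, centred on the array median, and the spots of each gene were averaged. Spots were named through the platform annotation, updated by gene ID to RefSeq assembly R64, which matched 5534 of 5539 genes. Genome positions are left out, since no build is named. Signal over background could not be assessed, and the number of arrays limits the precision.

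Ratios were tested against 0 on the 4 arrays of 1 platform with limma 3.58.1 in R 4.3.3 (lmFit, eBayes), two-sided, at 0.05 after Benjamini-Hochberg adjustment over 5539 genes. Genes measured on fewer than 3 arrays were left out of a fit. Pairs of genes were compared by exact sign-flip permutation in Python 3.11.15. The text names all 9 members, the 2 genes of smallest p in each of 6 lists, and the 5 genes nearest to the members' mean profile. The members and lists were chosen with earlier results of these data known. A shared value is a deposited value identical to that of a spot beside, above or below it in the block, so a copied value with no such neighbour went unseen. Alternatives changed the centring, scaling, spots used, arrays used, sign of replicate 2 and moderation.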

Additional observations from a re-analysis of the deposited data

Results flagged for a closer look

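A value was picked for a closer look when its gap to the nearest array exceeded the 95% limit of Dixon's test, which chance passes in about 1 of 20 groups, and 15 quantities were examined. ENO2 on replicate 4, at -3.37, stood apart from its values between -1.31 and -1.03 on the other 3 arrays of the platform. Both of its spots read -3.37, and ENO1 was lowest on the same array at -2.72. TDH1 minus TDH2 on replicate 2, at -1.19, stood apart from differences between -0.10 and 0.34 on the other 4 arrays, with a gap of 0.711 of the range against a limit of 0.71. What set these values apart was not tested.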

How the results depend on the processing

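No member passed limma's adjustment in any of 14 alternative settings, where 1 to 7 of the members were lower at an unadjusted p under 0.05, beside 2.29 to 4.56% of all genes, and 0 genes of the 4339 to 5539 tested passed adjustment. The setting that required a value on all 4 arrays kept the same 5539 genes and so repeated the main fit. The median of the members relative to all genes kept its sign in all 13 alternatives tried and ran from -1.42 to -0.92 with each array of the platform left out in turn. With the sign of replicate 2 turned it was at -0.16. Mean centring could not change it, since a constant per array cancels in the difference. GPM1, ENO1, ENO2 and CDC19 kept their sign in all 14, though CDC19, at -0.97, ran from -1.76 with the local median removed to -0.37 with all 5 arrays. With replicate 2 turned, TDH1 was at 0.62, TDH2 at 0.22, TDH3 at 0.19 and PGK1 at 1.02. PGK1, at -0.03, was also above 0 with mean centring (0.054), arrays scaled to one spread (0.12) and all 5 arrays (0.33). It was above 0 too with replicates 3 and 5 averaged (0.25) and with robust moderation and array weights (0.26). With arrays left out it ran from -1.27 to 0.66. PYK2 ran from -0.057 to 0.56 with arrays left out, and with shared values left out it had 1 array and was not tested. For the pairs the local median was removed on replicates 2 to 5 only, and replicate 1 entered uncorrected. TDH1 minus TDH2 was then 0.21, TDH2 minus TDH3 -0.79 and CDC19 minus PYK2 -1.17. ENO1 minus ENO2 was -0.86 (exact p = 0.0625, the smallest 5 arrays can give, adjusted 0.3125). That mean includes the uncorrected -2.63 of replicate 1. With shared values left out CDC19 minus PYK2 was -0.11 on 2 arrays. With replicate 2 turned TDH1 minus TDH2 was 0.35 and TDH1 minus TDH3 was 0.19. ENO1 minus ENO2 was 0.0041 on the 4 arrays of one platform. With arrays left out, ENO1 minus ENO2 ran from -0.82 to 0.0041, TDH1 minus TDH2 from -0.24 to 0.15, TDH1 minus TDH3 from -0.59 to -0.15, TDH2 minus TDH3 from -0.40 to -0.14 and CDC19 minus PYK2 from -1.25 to -0.40. The cause of these changes was not tested beyond what each setting alters. The title code as a random block could not be fitted, since only replicates 3 and 5 share one. No paired analysis was possible because the arrays form 1 group. The setting without PYK2 was chosen after seeing the data.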
